A study of Mus musculus with 2 samples.

Results

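POU domain factor genes encode transcription factors that hold DNA through a POU-specific domain and a POU homeodomain joined by a flexible linker. The classic site of the family is the octamer, and individual members specify neuronal types, control the cortical progenitor pool or serve all cells. The 9 genes described here are Pou2f1, Pou2f2, Pou3f1, Pou3f2, Pou3f3, Pou3f4, Pou4f1, Pou4f2 and Pou6f1, of 20953 protein-coding genes considered. Their binding by Sap130, a subunit of the Sin3-HDAC corepressor that removes acetyl groups from histones, was read from a single peak list. The members were named with earlier results of these data known, and 5 further POU genes without any peak are described separately. Every peak that carried the name of a member was taken, together with every peak without a gene label within 50 kb of the gene. This gave 37 of the 16231 peaks in the list, 8 with a member's label and 29 without any label.

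The material was brain of B6 wildtype mouse embryos at stage E13.5, in 1 Sap130 ChIP library (2 µg of rabbit antibody) and 1 input DNA library. No mutant, treatment or second stage was part of the series. Peaks were found in whole brain, so a peak does not say which cells carried it. The table gives no peak height and no read totals, so depth is unknown. The place in the list, with 1 as the first peak, is printed as deposited, and the quantity behind the order is not stated. Width fell along the list (Spearman's rho = -0.724 across peaks, a description), so place and width are not independent measures. Neither library had a replicate, and all values below are descriptions. Of 6 genes that mark embryonic brain, 4 carried a labelled peak (49.2% of all protein-coding genes did) and all 6 had a peak overlapping the 1 kb around a gene end (52.0%). None of 4 erythroid, 3 endothelial or 3 microglial marker genes was labelled or had a peak at a gene end. These lists are short. Their exact binomial intervals reached up to 60.2% for the erythroid genes and 70.8% for the endothelial and the microglial genes. The microglial genes Cx3cr1 and Aif1 had 2 and 1 unlabelled peaks within 50 kb.

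Sap130 lay at 8 of the 9 POU genes, and the class III genes held most of its peaks. Every labelled peak was centred within 1 kb of a transcription start of its gene in the authors' model. Not every peak near a RefSeq start was labelled. Unlabelled peaks of Pou6f1 and Pou2f2 were centred 30.5 and 851 bp from the outermost RefSeq start. At least 1 labelled peak was found for 5 members (55.6%, exact 95% binomial interval 21.2 to 86.3), against 49.2% of protein-coding genes. That share is close to the background and is no result about the family. A peak with any label or none overlapped the 1 kb around an end of 8 members, all except Pou4f2, against 52.0% of protein-coding genes. An unlabelled peak lay within 50 kb of 6 members, against 24.4% of protein-coding genes. Both counts depend in part on the choice of members. Over the 14 POU genes examined, members included, 5 had a labelled peak, 8 (57.1%) a peak at a gene end and 6 (42.9%) an unlabelled peak within 50 kb. The count at gene ends is then near the background. The 29 unlabelled peaks were unevenly spread, since 25 belonged to the class III genes and 22 (75.9%) to Pou3f2 and Pou3f3 alone. Without Pou3f3 the count was 15, and without both genes it was 7.

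**Figure D1:**
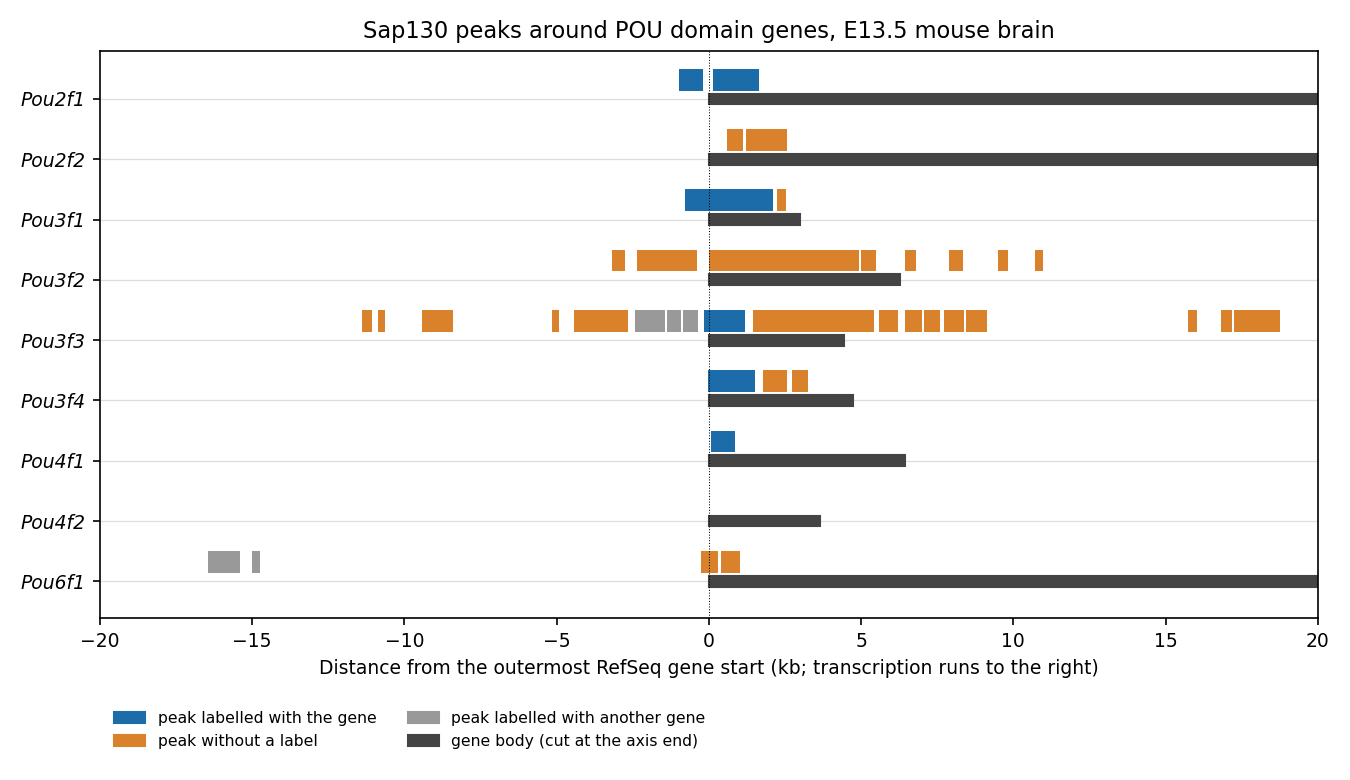
Positions of Sap130 peaks within 20 kb of the outermost RefSeq start of each gene, in kb along the direction of transcription. Blue bars are peaks labelled with the gene, orange bars have no label, grey bars carry another gene's label and black bars are gene bodies. Pou3f3 and Pou3f2 hold rows of peaks on both sides of the gene, Pou4f2 holds none, and 2 further Pou2f1 peaks lie beyond the right edge.

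The sequences before the starts are shown because the peaks sit differently on them. Each run is the 250 bases upstream of a RefSeq start on the gene's own strand (RefSeq, GRCm38.p6), and 8 of the 9 members had an entry, with 10 starts in all. Capitals mark the GC box GGGCGG and the CCAAT box, each on either strand. The first pair belongs to Pou2f1, at the outer start (chr1:166002635-166002884, minus strand) and at an inner start (chr1:165934949-165935198, minus strand). Next come Pou3f2 (chr4:22488367-22488616, minus strand), Pou3f3 (chr1:42695518-42695767, plus strand) and Pou3f4 (chrX:110814129-110814378, plus strand), which share CCAAT boxes. Pou4f1 (chr14:104468000-104468249, minus strand) is the richest in CpG, Pou6f1 (chr15:100599985-100600234, minus strand) lies wholly under a peak, and Pou4f2 (chr8:78436648-78436897, minus strand) has no peak at all.
Pou2f1 outer start: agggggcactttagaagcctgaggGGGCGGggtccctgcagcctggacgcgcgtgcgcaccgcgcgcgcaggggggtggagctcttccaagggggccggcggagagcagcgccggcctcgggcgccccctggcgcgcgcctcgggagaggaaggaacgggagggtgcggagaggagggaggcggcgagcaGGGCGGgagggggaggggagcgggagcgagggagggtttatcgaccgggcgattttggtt
Pou2f1 inner start: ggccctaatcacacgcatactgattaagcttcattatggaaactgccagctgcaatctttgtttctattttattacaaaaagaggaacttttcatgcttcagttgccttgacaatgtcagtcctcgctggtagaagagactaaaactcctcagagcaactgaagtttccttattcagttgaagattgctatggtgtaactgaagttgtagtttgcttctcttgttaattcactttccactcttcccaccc
Pou3f2: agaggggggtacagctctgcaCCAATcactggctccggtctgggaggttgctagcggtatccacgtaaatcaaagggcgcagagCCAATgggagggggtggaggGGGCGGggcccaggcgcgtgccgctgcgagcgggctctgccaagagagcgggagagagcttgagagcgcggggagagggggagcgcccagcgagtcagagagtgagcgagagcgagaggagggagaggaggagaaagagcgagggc
Pou3f3: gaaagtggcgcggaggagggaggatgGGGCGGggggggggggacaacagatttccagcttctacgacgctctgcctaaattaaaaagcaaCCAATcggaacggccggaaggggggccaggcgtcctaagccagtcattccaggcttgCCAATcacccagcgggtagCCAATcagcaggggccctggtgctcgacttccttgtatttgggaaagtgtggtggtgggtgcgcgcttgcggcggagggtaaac
Pou3f4: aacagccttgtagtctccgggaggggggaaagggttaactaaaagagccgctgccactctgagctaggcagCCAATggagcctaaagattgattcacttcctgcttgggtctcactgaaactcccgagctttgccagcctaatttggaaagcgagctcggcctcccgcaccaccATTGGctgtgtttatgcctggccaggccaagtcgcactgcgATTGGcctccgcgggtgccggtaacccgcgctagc
Pou4f1: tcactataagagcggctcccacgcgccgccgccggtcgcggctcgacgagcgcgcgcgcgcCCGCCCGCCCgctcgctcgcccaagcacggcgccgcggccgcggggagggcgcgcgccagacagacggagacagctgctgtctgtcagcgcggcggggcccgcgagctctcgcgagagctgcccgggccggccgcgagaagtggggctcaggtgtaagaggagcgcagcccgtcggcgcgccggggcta
Pou6f1: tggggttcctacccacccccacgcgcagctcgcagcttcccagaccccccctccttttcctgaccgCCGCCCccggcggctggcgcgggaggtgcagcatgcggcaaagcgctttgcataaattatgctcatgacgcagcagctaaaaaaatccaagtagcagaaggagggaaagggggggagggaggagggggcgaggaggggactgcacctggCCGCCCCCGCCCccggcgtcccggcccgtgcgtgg
Pou4f2: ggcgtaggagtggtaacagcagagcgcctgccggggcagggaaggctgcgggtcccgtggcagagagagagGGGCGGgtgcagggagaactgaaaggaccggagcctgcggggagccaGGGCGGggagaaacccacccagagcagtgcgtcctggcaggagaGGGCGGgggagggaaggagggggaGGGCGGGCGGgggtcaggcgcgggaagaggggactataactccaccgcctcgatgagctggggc

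The windows differed widely in base composition. Among 20418 windows of protein-coding genes, those with a peak within 1 kb of the start had a median of 18 CpG dinucleotides (quartiles 12 and 25), and those without had a median of 3 (quartiles 1 and 6). The Pou4f1 window held 47 CpG with 78.0% GC, more CpG than 99.7% of windows. The outer Pou2f1 window held 29 and the Pou6f1 window 20. Pou3f2 (18), Pou3f3 (15) and Pou3f4 (13) lay between the quartiles of the windows with a peak, Pou3f4 close to the lower one. Pou4f2 lay there too, with 17 CpG, 70.8% GC and 5 GC boxes, yet its nearest peak was 71302 bp away. Pou2f2 likewise had 12 CpG and 64.8% GC at its curated start without a peak within 1 kb. The inner Pou2f1 window went the other way, with 2 CpG and 40.0% GC under a peak.

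**Figure D2:**
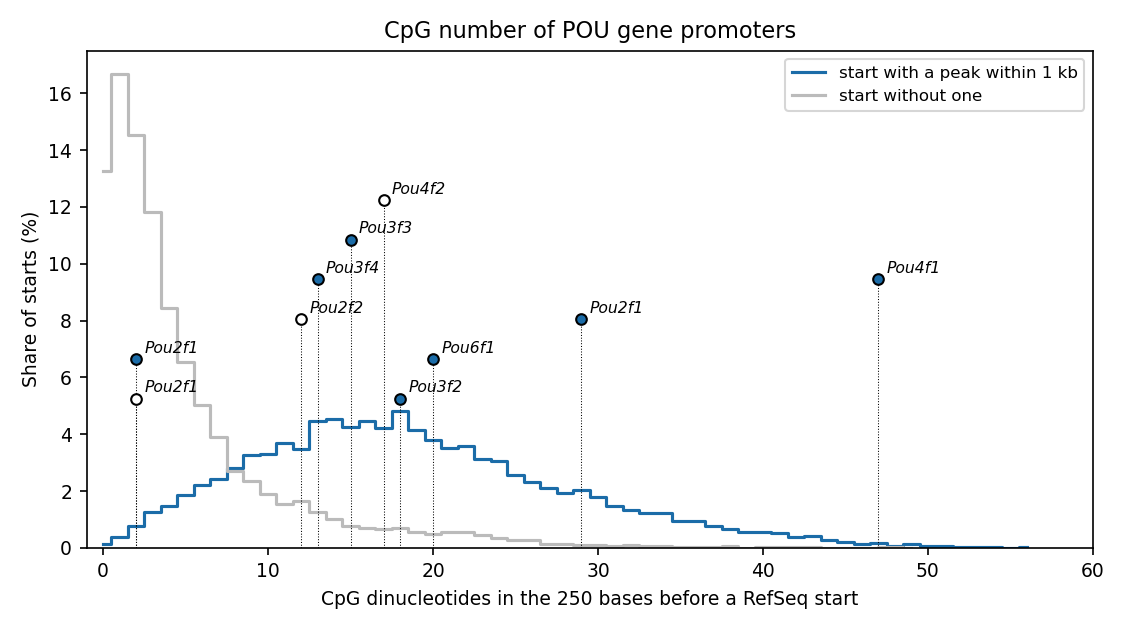
Number of CpG dinucleotides in the 250 bases before each RefSeq start (x axis) and share of starts in percent (y axis), for protein-coding starts with a peak within 1 kb (blue line) and without one (grey line). Circles mark the 10 windows of POU genes, filled where a peak lies within 1 kb, and their height is for legibility only. The open circles of Pou2f2 (12) and Pou4f2 (17) lie among the values of starts with peaks, and the filled inner Pou2f1 circle (2) lies among those without.

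The motifs differed in how often they occurred. The octamer ATGCAAAT, the site of the family itself, occurred in none of the 10 windows and in 1.53% of all windows. The E-box CACGTG (6.83% of all windows), the NRF1 palindrome (1.11%) and both RE1 parts, TTCAGCACC (0.328%) and GGACAG (19.1%), had no match in them either. With 10 windows and shares of this size, the absence of a match says nothing about the family. The TATA box TATAAA, present in 11.5% of windows, occurred before a further Pou2f1 start at which no peak lay within 1 kb. GC boxes were the most frequent and were found in 7 of the 10 windows, each of a different member, against 44.1% of all windows and 64.5% of those with a peak. The CCAAT box was searched after the sequences had been read. It occurred 2 times in the window of Pou3f2, 3 times in that of Pou3f3 and 3 times in that of Pou3f4. No other window held it, and Pou3f1 had no window to search. CCAAT boxes were thus in 3 of the 10 windows. Of all windows 35.6% held at least 1 CCAAT box, 11.5% at least 2 and 3.4% at least 3. GC box and CCAAT matches did not overlap. All motifs were searched on both strands.

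Pou3f3, also known as Brn1, acts with Pou3f2 in the production and migration of cortical neurons, and carried the most peaks of the family. Its label stood on 1 peak at chr1:42695618-42696965 (1347 bp, place 1195), and 14 unlabelled peaks lay within 50 kb. The total of 15 ranked 5 among 20953 protein-coding genes, whose median was 1 and whose 99th percentile was 6. The 14142 bp covered by these peaks ranked 4. The widest of them, 3970 bp at place 3615, ran over the gene from 1447 to 5417 bp past the RefSeq start. Of the other unlabelled peaks, 5 lay upstream, from 2660 to 11059 bp away from the gene, and 8 lay downstream, from 1160 to 12794 bp away. Their widths ranged from 230 to 1762 bp.

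The peaks around Pou3f3 formed a nearly continuous stretch. When peaks were joined across gaps of at most 500 bp, a step chosen after the data were seen, 12 peaks fell into 1 stretch at chr1:42690633-42704896. This stretch spanned 14.3 kb, and peaks covered 86.0% of it. Among 12706 such stretches on the autosomes and X, with a median span of 930 bp, it ranked 2 by span and 2 by number of peaks, and 3 by span when gaps of up to 1000 bp were joined. The stretch included 3 peaks labelled 2610017I09Rik, a former name of Pantr1, a long non-coding RNA gene on the opposite strand whose annotated start lies 943 bp upstream of Pou3f3. Those peaks were 959, 440 and 505 bp wide, at places 7142, 5677 and 7030. The start of Pou3f3 differs between annotations. The start in the authors' model lay 1378 bp downstream of the RefSeq start, so the labelled peak was centred 854.5 bp upstream of the former and 523.5 bp downstream of the latter.

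Near Pou3f3, 3 unlabelled peaks held the start of a non-coding RNA gene. The start of Pantr2 lay in a 1535 bp peak at place 8731, that of 2900092D14Rik in the 3970 bp peak, and that of Gm46091 in a 337 bp peak at place 11413. Over all members, 5 of 29 unlabelled peaks (17.2%) held a RefSeq start, against 11.4% of the 3575 unlabelled peaks in the list. The remaining ones were a Pou3f2 peak with the start of Gm30731 and a Pou6f1 peak with the start of Pou6f1 itself.

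Pou3f2, or Brn2, is used to turn fibroblasts into neurons and acts in upper-layer cortical and neuroendocrine hypothalamic neurons. It had no labelled peak, but 8 unlabelled peaks covered 9226 bp within 50 kb. By the number of unlabelled peaks it ranked 29 among protein-coding genes, and by covered length 25. Among 10639 genes without a label, 9 had 8 or more unlabelled peaks. The widest peak of Pou3f2 measured 4898 bp and lay at chr4:22483449-22488347 (place 3520), number 13 by width among all 16231 peaks. It began 19 bp inside the start and ended 4917 bp into the gene. Its centre lay 2468 bp from the start, outside the 1 kb within which all labelled peaks were centred. The next peak lay upstream at chr4:22488757-22490729 (1972 bp, place 6144), with its centre 1377 bp before the start. It contained the start of Gm30731, whose synonym Pnky names a neural long non-coding RNA transcribed away from Pou3f2. The other 6 peaks were 263 to 502 bp wide and stood at places 12166 to 15955. Joined across 500 bp, 4 of the peaks made a stretch of 8.68 kb that ranked 10 by span, as did a stretch of 9.98 kb across gaps of up to 1000 bp.

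**Figure D3:**
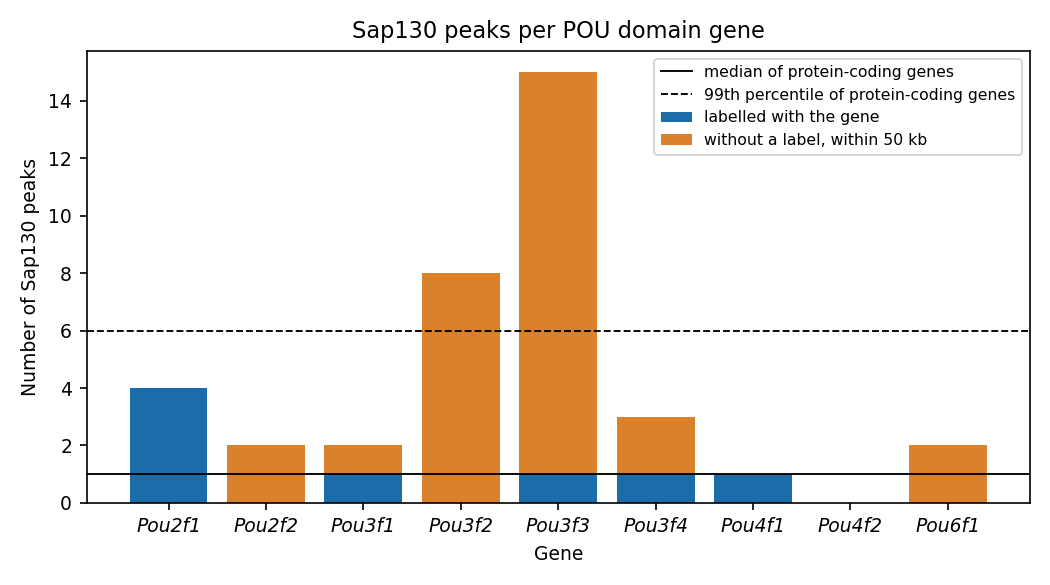
Number of Sap130 peaks (y axis) per POU gene (x axis), as peaks labelled with the gene (blue) stacked with unlabelled peaks within 50 kb (orange). Lines mark the median (1) and the 99th percentile (6) of 20953 protein-coding genes. Pou3f3 (15) and Pou3f2 (8) lie above the upper line.

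Pou3f1 and Pou3f4 carried fewer peaks, which stayed within or at the gene. Pou3f1, or Oct6, drives Schwann cells toward myelination. Its labelled peak at chr4:124656876-124659765 was 2889 bp wide (place 5430), wider than 99.4% of labelled peaks, and a second peak of 276 bp (place 14256, no label) lay near the end of the gene. The nearest peaks of neighbours were those of Utp11l, 32412 bp downstream, and Fhl3. Pou3f4, or Brn4, is an X-linked gene whose loss causes deafness. It had a labelled peak of 1547 bp at chrX:110814336-110815883 (place 8730) and unlabelled peaks of 791 bp (place 11498) and 539 bp (place 14822) inside the gene. The X chromosome held 542 peaks, with a median place of 11208.5.

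All 4 class III genes were covered along most of their length. These genes are short and intronless, and the authors' models of Pou3f1, Pou3f3 and Pou3f4 have 1 exon each. Peaks covered 94.4% of the Pou3f3 body, 86.1% of Pou3f2, 79.6% of Pou3f1 and 59.9% of Pou3f4. Among 2354 protein-coding genes of 3010 to 6272 bp, the length range of the 4 genes, these values ranked 3, 12, 15 and 38. In that range 46.2% of genes had a peak in the body, the median cover of those was 15.1%, and 2.46% of all were covered to at least 50%. Cover of this extent was not particular to the POU genes, as 8 of 19 Sox genes had it, described with that family. The comparison at matched length was added after the data were seen, and the number of exons was not matched. Peaks covered the whole coding sequence of Pou3f1 (1350 bp) and Pou3f4 (1086 bp) and 95.4% of that of Pou3f3 (1494 bp).

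The class IV genes, which are of similar length, had less of the gene body under peaks. Pou4f1, or Brn3a, a factor of sensory neurons and the habenula, had 1 labelled peak of 784 bp at chr14:104467261-104468045 (place 10686). The centre of this peak lay 346 bp downstream of the start, in the coding part of the opening exon, and 12.2% of the gene body was covered. Peaks covered 9.72% of its coding sequence. Pou4f2, or Brn3b, a factor of retinal ganglion cells, had no peak of any label within 50 kb. The nearest one, 71302 bp from its start, was a 2137 bp peak labelled Rbmxl1. The labels name brain as the tissue and do not say whether the eye was included. The difference between the classes was not tested.

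Pou2f1, or Oct1, is present in most cells and serves the promoters of histone and small nuclear RNA genes. It carried 4 labelled peaks, more than any other member, and no unlabelled one. They stood in pairs at 2 starts 67.7 kb apart. At the outer start, a 790 bp peak upstream of the gene (chr1:166002933-166003723) stood at place 39, with 0.2% of the list before it. A 1511 bp peak downstream (chr1:166001117-166002628) stood at place 3316. At the inner start, peaks of 786 bp and 493 bp stood at places 14384 and 14917. The outer pair stood earlier in the list than the inner pair, and the outer start had 29 CpG in its window where the inner had 2. Another RefSeq start, between these, had no peak within 17860 bp. The label with its centre farthest from a start among members was the 493 bp peak, at 976.5 bp.

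Starts between peaks occurred at Pou2f1 and Pou3f2. The outer Pou2f1 start lay in a gap of 305 bp, with the peaks 299 bp upstream and 6 bp downstream. The Pou3f2 start lay in a gap of 410 bp, 391 bp from the upstream and 19 bp from the downstream peak. In both cases none of the 250 bases printed above for that start was under a peak. Of the 11 member starts examined, 8 had a peak within 1 kb, and of these 6 lay inside a peak and 2 between peaks. Among 10997 starts of protein-coding genes with a peak within 1 kb, 78.4% lay inside a peak and 5.77% between peaks on both sides. At Pou3f3, Pou3f4 and Pou4f1 the peak covered the start and 149, 42 and 46 of the 250 bases before it.

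Pou2f2 and Pou6f1 had only unlabelled peaks, past the outermost RefSeq start in Pou2f2 and on and past the start in Pou6f1. Pou2f2, or Oct2, is best known from B cells and is also made in neurons. Its peaks of 1335 bp (chr7:25178244-25179579, place 8413) and 538 bp (chr7:25179677-25180215, place 5840) lay 582 to 2553 bp inside the outermost RefSeq start. The curated start in the promoter table lay 45784 bp from the nearest of them. Pou6f1 is expressed widely in the nervous system. A 571 bp peak at chr15:100599745-100600316 (place 6768) held its RefSeq start, and a 627 bp peak at chr15:100599032-100599659 (place 6841) followed 325 bp past that start. With every start of the promoter table accepted, a peak centre lay within 1 kb of 5 members, Pou6f1 among them, and Pou3f1 is not in that table. Peaks near both genes were also labelled for neighbours, such as Zfp574, 9455 bp from Pou2f2, and Dazap2, 15397 bp from Pou6f1.

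**Figure D4:**
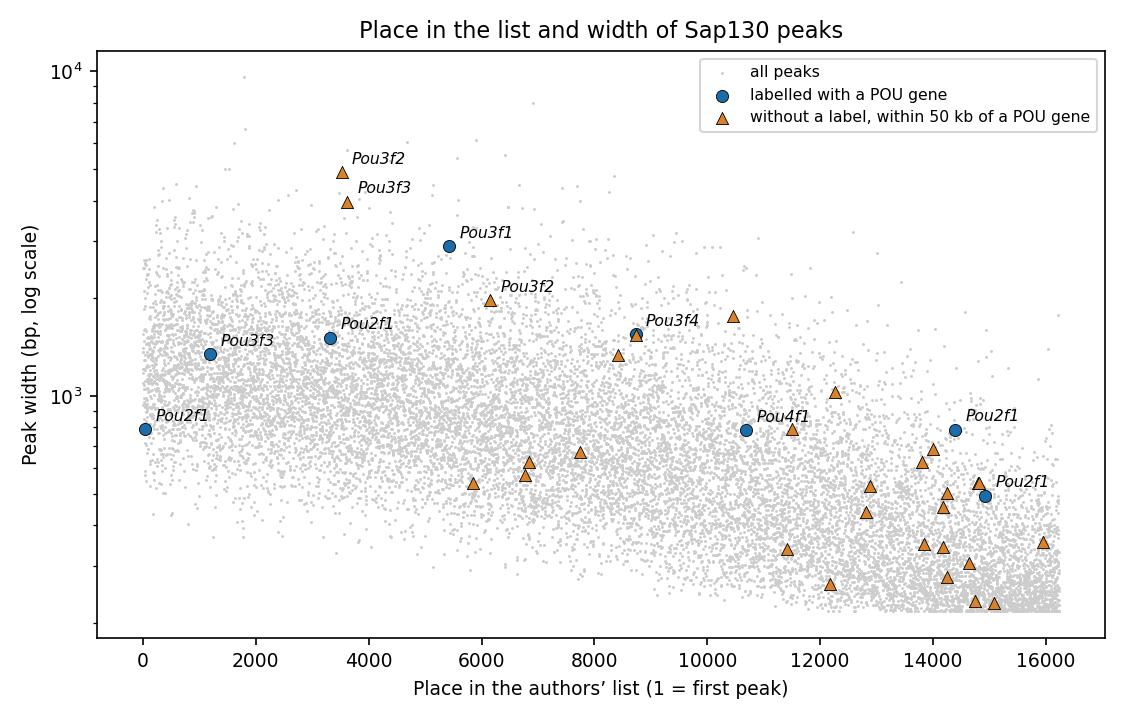
Place in the authors' list (x axis, 1 is the first peak) and peak width in bp (y axis, log scale) for all 16231 peaks (grey), peaks labelled with a POU gene (blue circles) and unlabelled peaks within 50 kb of one (orange triangles). Unlabelled peaks of Pou3f2 and Pou3f3 at 4898 and 3970 bp lie at the upper edge, and the 790 bp peak of Pou2f1 is at the far left.

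Labelled and unlabelled member peaks differed in place much as in the whole list, so this difference is no result about the family. The 8 labelled peaks had a median width of 1068.5 bp and a median place of 7080, against 761 bp and 6843.5 for all labelled peaks. The 29 unlabelled peaks had a median width of 538 bp and a median place of 12812, against 441 bp and 12558 for all unlabelled peaks. Among the first 8115 peaks were 4 of the 8 labelled and 7 of the 29 unlabelled member peaks, against 58.8% of all labelled and 18.9% of all unlabelled peaks. Of the unlabelled member peaks, 10 touched a gene body, 13 lay up to 5 kb outside and 6 lay farther out, up to 12794 bp. No unlabelled peak lay between there and 50 kb, and the first one beyond that limit was 58268 bp from Pou2f2. For all 29, the member was the nearest protein-coding gene. Non-coding RNA genes were left out of that comparison. Of the unlabelled Pou3f3 peaks, the 5 upstream lay inside the body of Pantr1 and the 8 downstream inside that of Gm46091. Peaks of at least 2 kb numbered 3 of 37, against 4.23% of all peaks.

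The 5 other POU genes examined had no peak. None of Pou1f1, Pou2f3, Pou4f3, Pou5f1 and Pou5f2 carried a label, an unlabelled peak within 50 kb or a peak over a gene end. They include factors of the pituitary (Pou1f1), of pluripotent cells (Pou5f1) and of hair cells of the ear (Pou4f3). Counting error alone allows a share of up to 52.2% for 0 of 5 genes (exact binomial interval). The genes named as members had been selected with earlier results of these data known, so this contrast is a description.

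Partners of POU factors were labelled in 9 of 13 cases (69.2%, interval 38.6 to 90.9), against the 49.2% of protein-coding genes given above. All 5 genes of the small nuclear RNA activating complex, which Oct1 helps to recruit, had a labelled peak, with Snapc5 (590 bp, place 1224), Snapc1 (693 bp, place 3225) and Snapc2 (1146 bp, place 4570) earliest. Hcfc1, a coregulator through which Oct1 acts in viral gene activation, followed at place 4953 (2349 bp). The 4 partners without a label were Pou2af1, the B cell coactivator, and Sox4, Sox10 and Sox11. Sox4 and Sox11, intronless like the class III genes, had 3 and 2 unlabelled peaks that covered 98.4% and 84.3% of their bodies, while Pou2af1 and Sox10 had none. Of 9 genes known as targets of POU factors, 7 (77.8%, interval 40.0 to 97.2) were labelled. Earliest were the Notch ligand gene Dll1 (1988 bp, place 4287) and Bcl2, an inhibitor of cell death (823 bp, place 4422), followed by the synaptic gene Snap25 (place 7438) and the neurofilament gene Ina (place 13458). The neural progenitor gene Nes had 3 unlabelled peaks, while Crh, of neuroendocrine neurons, had none.

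Among families with similar roles, 10 of 19 Sox genes (52.6%) and 8 of 15 proneural and Olig bHLH genes (53.3%) carried a labelled peak. For the POU members it was 5 of 9 (55.6%). These shares are close to the 49.2% of all protein-coding genes and are no result about the families. The median number of peaks per gene, with unlabelled ones within 50 kb, was 2 for POU, 2 for Sox and 1 for bHLH genes. The most peaks on 1 gene were 15, 12 (Sox2) and 6 (Neurod2). At least 50% of the gene body was under peaks in 4 of the 9 POU members (4 of the 14 POU genes examined), 8 of the Sox genes and 1 of the bHLH genes, against 1.16% of all protein-coding genes. The Sox genes were Sox2 (100%), Sox4 (98.4%), Sox21 (92.9%), Sox3 (91.6%), Sox1 (88.5%), Sox11 (84.3%), Sox9 (63.0%) and Sox12 (56.8%), and the bHLH gene was Neurog2 (86.6%). Gene length was not matched in this count. Differences between the families were not tested.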

How the data were processed

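Bowtie 1.1.2, MACS2 2.1.0.20140616 and the build GRCm38 (mm10) are named in the submitters' processing notes. Settings, thresholds and filters are not stated there or in the file header. The deposited table lists 16231 peaks with a running number, bounds and, for 12656 of them, a gene symbol with a RefSeq model. Peak bounds are printed as deposited, and width is end minus start. Model bounds were raised by 1 base: with both ends counted from 0, 99.8% of 10566 coding models had a length divisible by 3.

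Labels were matched to RefSeq genes of GRCm38.p6 by accession (12520 peaks) or symbol (134), and 2 stayed unmatched. The background was 20953 protein-coding genes with a curated transcript, Y and mitochondrial genes left out. Distance to a gene was taken from the nearer peak edge to the gene body, 0 inside it. An unlabelled peak near several genes counted for each. Distances, counts and ranks were computed with Python 3.11.15, pandas 2.3.3, NumPy 2.4.6 and SciPy 1.17.1, and figures with matplotlib 3.10.9. The counting was tested on simulated data. Binomial intervals are exact (Clopper-Pearson, 95%), also for a share of 0, and cover counting error only.

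Members and gene lists were chosen with earlier results of these data known. Some genes of these lists are not reported here. Named genes are all members and the other POU genes examined, and in the partner and target lists the 4 earliest in the list and up to 4 without a label. Genes beside a peak and the genes with the highest values in comparisons are named as such, chosen after their values were seen. Alternatives were other windows, other criteria for a promoter peak and the first 8115 peaks. No test was run. Protein sequences were not used here.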

Additional observations from a re-analysis of the deposited data

How the results depend on the processing

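The number of members with a labelled peak depended on the criterion. It was 2 (Pou2f1 and Pou4f1) with the centre within 500 bp of the start, 3 (Pou2f1, Pou3f1 and Pou3f3) among the first 8115 peaks, and 8 for any peak overlapping the 1 kb around a gene end. It stayed at 5 for peaks of at least the median width. It was also 5 with any RefSeq start of the promoter table, a setting chosen after seeing the data, but Pou6f1 then took the place of Pou3f1. Pou3f1 has no entry in that table, so only 8 members could be counted under this setting. The share of protein-coding genes was 47.7% with all protein-coding genes as background, 44.0% within 500 bp, 33.0% among the first 8115 peaks, 54.3% with the promoter table and 52.0% for any peak at a gene end. Unlabelled peaks near members numbered 24 within 10 kb, 38 within 100 kb and 29 by peak centre, each within 1.5 times the 29 reported, and 7 among the first 8115 peaks. They numbered 15 without Pou3f3 and 7 without Pou3f2 and Pou3f3, as chosen after seeing the data, and 6 members had one at each distance. The share of protein-coding genes with an unlabelled peak was 12.9% within 10 kb and 35.2% within 100 kb. With the earliest peak of each gene only, labelled member peaks had a median width of 1347 bp and a median place of 5430. Apart from the missing entry of Pou3f1, the cause of these changes was not tested. A stricter threshold by score was not run, as the table used here holds none. No paired analysis was possible because neither library has a replicate. Depth is unknown, so a gene without a peak, such as Pou4f2, had none that was listed, which does not show that Sap130 is absent.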

Other observations

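Among all protein-coding genes, those with at least as many peaks as Pou3f3, singled out after their values were seen, included Mllt10, Meis2, Vamp2 and Bcor with 16 each and Per1, Lhx2 and Btn2a2 with 15. Meis2 and Lhx2 encode developmental transcription factors of the brain. Meis2 and Btn2a2 had no labelled peak, like Pou3f2, and their 16 and 15 peaks were all unlabelled. Vamp2 and Per1 are neighbours on chromosome 11, and unlabelled peaks within 50 kb of both count for each of them. The same rule applies to Mllt10 beside Skida1 and to Btn2a2 beside Btn1a1, so these counts are not particular to the gene named. Of the genes with at least as many peaks as Pou3f3 named here, only Mllt10 and Meis2 had more bases under peaks. They had 17058 and 14461 bp against 14142 bp.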
